A study of Mus musculus with 13 samples.

Results

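The 10 genes described here are cytokine genes detected in cultures of C2C12 myotubes. They encode the interleukins Il1a, Il1b, Il33, Il18, Il12a, Il34, Il6, Il11 and Il15 and the related cytokine Lif (leukemia inhibitory factor). They were taken by symbol from a given list and matched to their Ensembl identifiers, and they are 10 of the 16382 genes in the count tables. RNA-seq was performed on myotubes of C2C12, a mouse myoblast line of wild-type genotype whose cells fuse into multinucleated fibers in low serum. Per the study, such cultures also hold unfused myoblasts, so reads cannot be assigned to myotubes alone. Mature myotubes, at day 8, were exposed for 24 h to 10 μM palmitoylethanolamide (PEA, an endogenous fatty acid amide) or, as the control group CON, to its solvent DMSO alone, and were then lysed for RNA. Each treatment has 6 libraries, from 2 wells in each of 3 repeats of the experiment. Because the repeat that each well came from is not labelled, p-values measure the spread between libraries, part of which may be technical.

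Interleukins are secreted proteins through which cells act on their neighbors. Il1a, Il1b, Il33 and Il18 belong to the IL-1 family, whose members signal through receptors that recruit Myd88 and IRAK kinases. Il6, Il11 and Lif signal through receptors that share the chain gp130, and Il6 and Il15 are known as cytokines that muscle fibers themselves make. Il12a encodes one chain of a cytokine that needs a partner chain, and Il34 binds the receptor of the macrophage growth factor Csf1.

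The estimated counts of a library summed to a median of 18420606 (lowest 12354845, highest 50397444), and the deepest, CON replicate 1, exceeded the next by 2.25 times. Myotube genes such as Acta1 (skeletal actin) and Myog (myogenin) were abundant in every library, at a lowest normalized count of 41200 and 9100, respectively. The leukocyte gene Ptprc was at or near 0, with at most 6 estimated counts in a library. Of the other macrophage markers, Cd14 was at 483 to 774 and Cd68 at 51.1 to 134 normalized counts. Both were tested and not called (log2 fold change 0.25, edgeR adjusted p = 0.0722, and -0.06, edgeR adjusted p = 0.875). Lyz2, also not called, was at 4.72 to 20.4 normalized counts. Csf1r, Itgam and Cx3cr1 reached at most 16.5, 11.0 and 8.51 normalized counts, respectively, and were not tested. All 10 cytokine genes passed the filter on low counts and had a median of 10 or more estimated counts, so 0 of the 10 were too low to judge. Il11 was the least covered gene, with a median of 19.5 estimated counts.

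Of the 10 genes, 3 fell after PEA (Il1a, Il33 and Il12a) and 0 rose, at an edgeR adjusted p below 0.05. Across all 13142 genes tested, 4.74% were called lower and 6.31% higher, and 11.0% in either direction. DESeq2 called 4 of the 10, the additional gene being Il34, where it called 14.5% of all genes. At an unadjusted p below 0.05 there were 6 of the 10 genes, against 27.4% of all genes, and the median log2 fold change was -0.15 for the 10 genes and 0.01 for all genes tested. The groups did not overlap for Il33 and Il12a, with every PEA library below every CON library. That separation was found for 1.81% of all genes tested, and the opposite one, with every PEA library above, for 2.53% of all genes and 0 of the 10. A log2 fold change of 1 or more in size was estimated for 1 of the 10 genes (Il1a) and for 0.708% of all genes. In bulk RNA, fewer cells of a type and less RNA per cell cannot be told apart.

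To show the sequence context of the 3 genes that fell, the 250 bases before the start of the canonical transcript are printed for each, with those of Il6, a gene that was not called, for comparison. The sequences were read from GRCm39, run 5′ to 3′ on the strand of the gene, and lie at chr2:129152099-129152348 (minus strand, Il1a), chr19:29902233-29902482 (plus strand, Il33), chr3:68598435-68598684 (plus strand, Il12a) and chr5:30217862-30218111 (plus strand, Il6). Capitals mark matches to the motifs that were searched.
Il1a: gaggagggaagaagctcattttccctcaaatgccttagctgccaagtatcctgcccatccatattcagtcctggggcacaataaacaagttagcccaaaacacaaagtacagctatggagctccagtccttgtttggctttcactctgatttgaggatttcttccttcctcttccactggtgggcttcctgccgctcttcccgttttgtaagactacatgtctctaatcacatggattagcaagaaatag
Il33: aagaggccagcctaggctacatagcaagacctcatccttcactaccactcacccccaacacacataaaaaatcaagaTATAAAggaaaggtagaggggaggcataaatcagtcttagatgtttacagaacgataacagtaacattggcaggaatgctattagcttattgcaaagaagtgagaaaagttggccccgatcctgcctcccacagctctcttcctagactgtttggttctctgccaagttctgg
Il12a: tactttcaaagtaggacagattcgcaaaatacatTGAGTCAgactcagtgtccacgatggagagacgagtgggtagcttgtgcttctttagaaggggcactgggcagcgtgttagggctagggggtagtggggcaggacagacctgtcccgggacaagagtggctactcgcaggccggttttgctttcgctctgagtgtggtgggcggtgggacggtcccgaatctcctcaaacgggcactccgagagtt
Il6: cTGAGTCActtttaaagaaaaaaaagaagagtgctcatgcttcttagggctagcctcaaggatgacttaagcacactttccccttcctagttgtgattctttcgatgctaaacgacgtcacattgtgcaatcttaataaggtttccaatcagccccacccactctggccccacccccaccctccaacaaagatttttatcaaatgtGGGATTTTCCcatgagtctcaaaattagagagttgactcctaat
Of the 6 motifs, 5 were searched on both strands. The AP-1 motif was TGACTCA or its reverse complement, which is the form printed in capitals for Il12a and Il6. The cyclic AMP response motif CRE was TGACGTCA. The motif bound by STAT factors, GAS, was TTCNNNGAA. The interferon response motif ISRE was GAAANNGAAA. The NF-kB motif is named only, and TATAAA was searched on the strand of the gene. The Il1a promoter held 0 of the 6 motifs, Il33 held TATAAA at bases -173 to -168 from the start, and Il12a held an AP-1 match at bases -216 to -210. In Il6, an AP-1 match stood at bases -249 to -243 and the NF-kB match GGGATTTTCC at bases -44 to -35. Over all 10 promoters, the AP-1 motif was found in 4 (Il12a, Il6, Il11 and Lif), NF-kB in 2 (Il6 and Lif), TATAAA in 2 (Il1b and Il33) and ISRE in 1 (Il15), while CRE and GAS were found in 0. In the promoters of all 21770 protein-coding genes, the shares with a match were 4.02% for AP-1, 7.62% for NF-kB, 8.03% for TATAAA, 3.32% for ISRE, 1.69% for CRE and 7.70% for GAS. These matches are letters in a window and were not tested as binding sites.

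Il1a, which encodes interleukin-1 alpha, an alarmin that acts on the IL-1 receptor without needing cleavage, lies at chr2:129140291-129152098 on the minus strand. Its normalized counts (estimated counts divided by 1 factor per library) had a lowest value of 42.2, a median of 58.2 and a highest value of 66.1 in CON. The corresponding values in PEA were 14.1, 25.4 and 43.1. Of the 6 PEA libraries, 5 lay below every CON library, and PEA replicate 3 lay just above CON replicate 3. Il1a fell by 1.06 on the log2 scale (SE 0.26, 95% interval -1.60 to -0.51, edgeR adjusted p = 0.0169). On the linear scale its count fell by 51.9%. The coefficient of variation between libraries was 15.8% in CON and 43.3% in PEA, at a median of 40.0 estimated counts per library.

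Il1b encodes interleukin-1 beta, which is made as a precursor and cut by caspase-1, and is the next protein-coding gene along the chromosome, at chr2:129206490-129213059. Its lowest, median and highest normalized counts were 93.6, 121 and 236 in CON and 57.5, 79.4 and 148 in PEA. The groups overlapped, since 3 PEA libraries lay below the lowest CON library while PEA replicate 3 was above 4 of the CON libraries. The log2 fold change was -0.64 (SE 0.26, 95% interval -1.19 to -0.10, edgeR adjusted p = 0.116). Without PEA replicate 3 it was -0.85 and passed the threshold (edgeR adjusted p = 0.0421), and without CON replicate 5 it was -0.45 (edgeR adjusted p = 0.259).

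The ratio of Il1a to Il1b within a library does not depend on library scaling and was used to test whether the change of the neighboring genes differed. Its median was 0.456 in CON, with a range from 0.269 to 0.572, and 0.316 in PEA, with a range from 0.169 to 0.520. The difference in mean log2 ratio was -0.46 (two-sided exact permutation test, p = 0.119, adjusted p = 0.357 over 3 ratios). A difference between the changes of Il1a and Il1b was therefore not detected, although only Il1a passed the threshold. Leaving out PEA replicate 2 gave -0.61 (exact permutation p = 0.0281, before adjustment).

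Il33 encodes interleukin-33, a nuclear alarmin released from damaged cells, and lies at chr19:29902483-29938933. Its normalized counts were 1860, 2200 and 2750 (lowest, median and highest) in CON. In PEA they were 1530, 1660 and 1840. Every PEA library lay below every CON library, and the spread was narrower in PEA, with a coefficient of variation of 6.33% against 14.9% in CON. Il33 fell by 0.44 on the log2 scale (SE 0.08, 95% interval -0.61 to -0.27, edgeR adjusted p = 0.00349). Its count fell by 26.4%, the smallest of the 3 called changes.

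Il18, the remaining IL-1 family member, encodes a cytokine that is also cut by caspase-1. Its normalized counts were 95.6, 121 and 144 in CON and 103, 120 and 138 in PEA, and the groups overlapped throughout. The log2 fold change was -0.04 (SE 0.13, 95% interval -0.31 to 0.23, edgeR adjusted p = 0.882). The ratio of Il18 to Il18bp, its secreted antagonist, had medians of 5.49 (CON) and 5.71 (PEA), not separable by the test (difference in mean log2 ratio -0.07, two-sided exact permutation test, p = 0.784, adjusted p = 0.857).

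Il12a encodes the p35 chain of interleukin-12, which is also used in interleukin-35, and lies at chr3:68597977-68605880. Its normalized counts were 53.5, 73.2 and 107 in CON. In PEA they were 27.8, 37.2 and 49.7, with the highest PEA library below the lowest CON library. Il12a fell by 0.99 on the log2 scale (SE 0.20, 95% interval -1.41 to -0.57, edgeR adjusted p = 0.00584), and its count fell by 49.7%. The partner chains Il12b and Ebi3 were not analysed here. Il23a, the chain that resembles p35 in interleukin-23, had a median of 3.00 estimated counts and was not tested.

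Il34 encodes interleukin-34, a growth factor for macrophages. Its normalized counts were 314, 357 and 407 in CON and 262, 302 and 332 in PEA. Of the 6 PEA libraries, 4 lay below the lowest CON library, and all 6 lay below the CON median. The log2 fold change was -0.25 (SE 0.08, 95% interval -0.43 to -0.07), with an adjusted p of 0.0640 in edgeR and 0.0438 in DESeq2. Without CON replicate 2 the edgeR adjusted p was 0.0379. The Il34 gene overlaps Vac14 and Mtss2 on the opposite strand. Whether counting used the strand is not given in the sources used here, so reads from overlapping stretches cannot be told apart, and this holds also for the called genes Il1a, Il33 and Il12a and for Il1b, Il6, Il15 and Il18, which overlap annotated genes on the opposite strand.

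**Figure D1:**
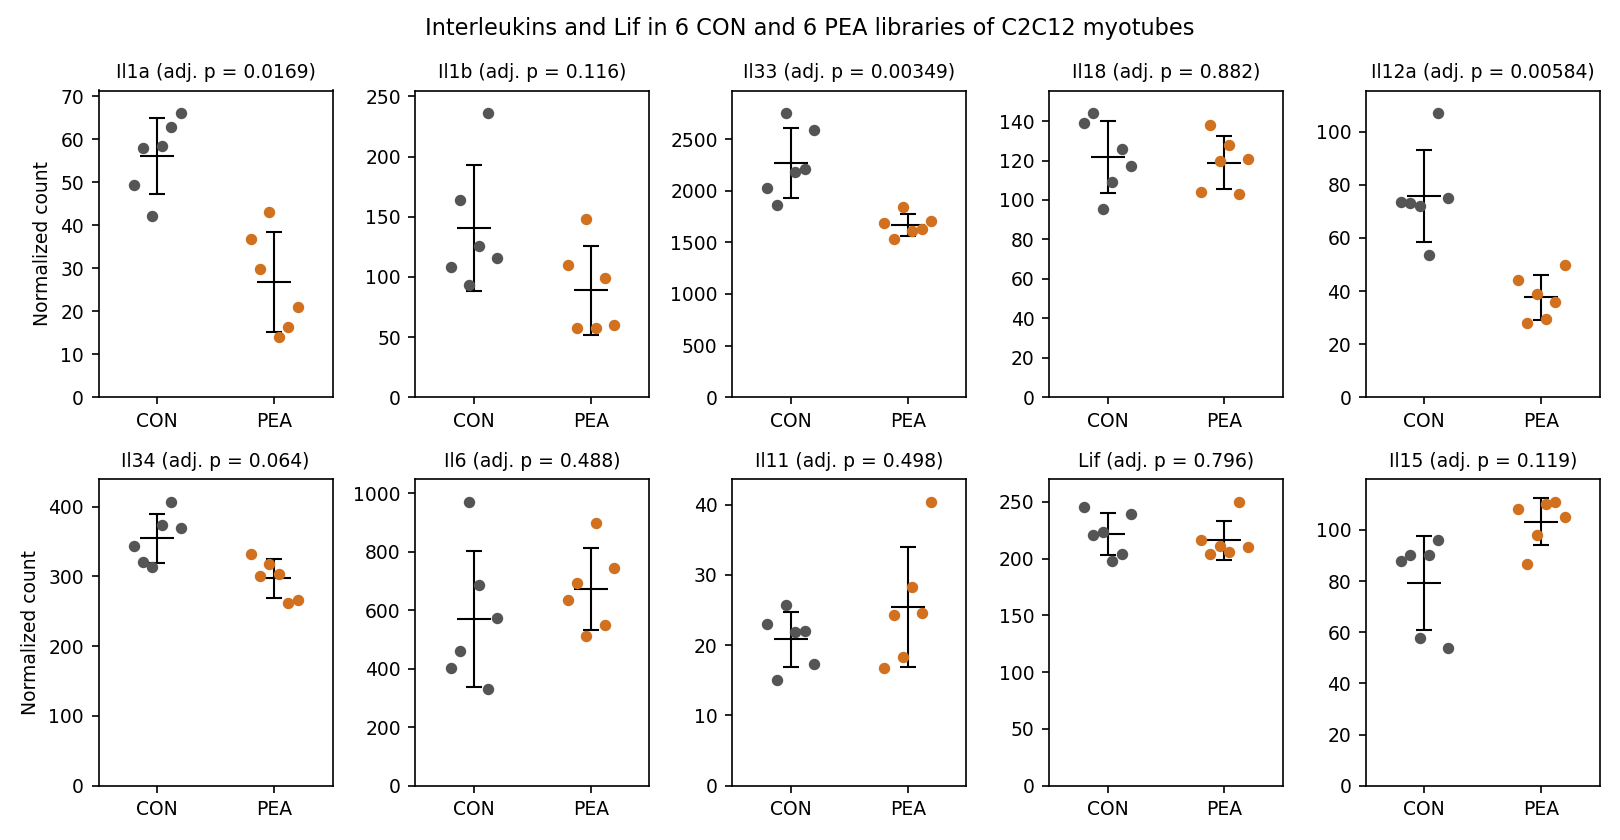
Normalized counts (y axis, from 0) of the 10 genes in each of 6 CON (gray) and 6 PEA (orange) libraries, with the mean and SD as bars and the edgeR adjusted p above each panel. The groups are separate for Il33 and Il12a, 1 PEA library of Il1a reaches into the CON range, and the groups overlap for the other 7 genes.

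None of the gp130 cytokines passed the threshold in edgeR. Il6, an acute-phase cytokine that contracting muscle releases, had normalized counts of 330, 517 and 971 in CON and 512, 665 and 899 in PEA. CON replicate 3 was the highest of all 12 libraries and CON replicate 5 the lowest, so the CON range enclosed the PEA range. The log2 fold change of Il6 was 0.24 (SE 0.20, 95% interval -0.19 to 0.67, edgeR adjusted p = 0.488). It was 0.46 without CON replicate 3 (edgeR adjusted p = 0.0838) and 0.13 without CON replicate 5.

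Il11, a cytokine known from fibroblasts and bone marrow stroma, had normalized counts of 15.0, 22.0 and 25.7 in CON and 16.8, 24.4 and 40.4 in PEA. PEA replicate 6 stood highest, and at these counts the interval of the log2 fold change ran from -0.25 to 0.84 (estimate 0.30, SE 0.26, edgeR adjusted p = 0.498). Without PEA replicate 6 the estimate was 0.11. Lif, which acts on myoblasts and on nerve cells, had normalized counts of 198, 222 and 245 in CON and 204, 211 and 250 in PEA. It varied little between libraries, with coefficients of variation of 8.34% and 7.89% in the CON and PEA groups. The log2 fold change of Lif was -0.04 (SE 0.09, 95% interval -0.23 to 0.14, edgeR adjusted p = 0.796).

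Il15, a cytokine of muscle that sustains natural killer cells and T cells, had normalized counts of 53.9, 88.8 and 95.9 in CON and 86.8, 107 and 111 in PEA. CON replicates 3 and 6 were low, and 5 of the 6 PEA libraries lay above the highest CON library. The log2 fold change was 0.39 (SE 0.16, 95% interval 0.06 to 0.72, edgeR adjusted p = 0.119), the highest of the 10 genes. The ratio of Il15 to Il15ra, the receptor chain that presents it, had medians of 4.37 (CON) and 3.51 (PEA), again not separable (difference in mean log2 ratio -0.04, two-sided exact permutation test, p = 0.857, adjusted p = 0.857).

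**Figure D2:**
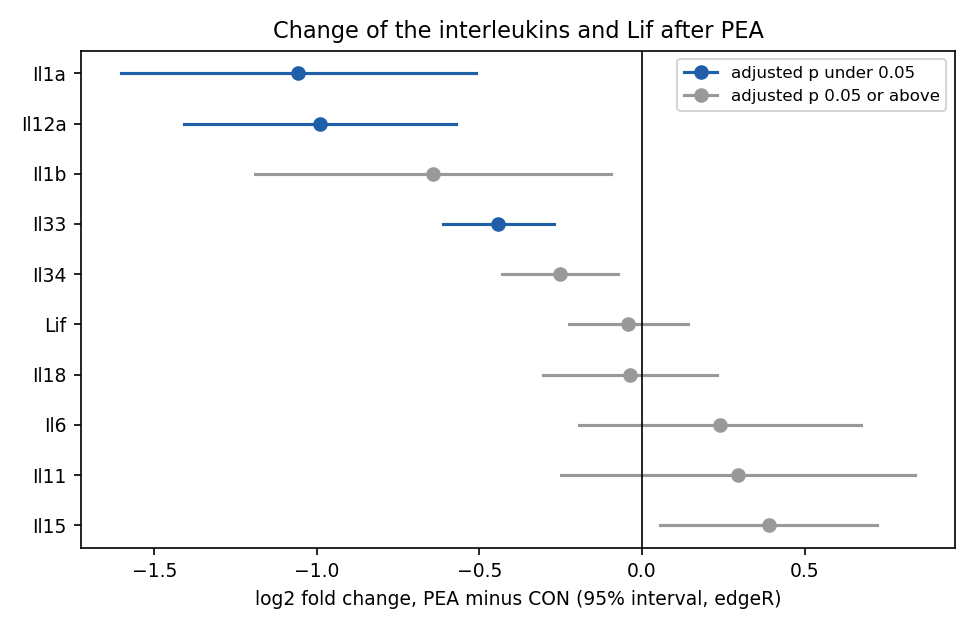
Log2 fold change of each gene (x axis, PEA minus CON) with its 95% interval from edgeR, in order of the estimate, with genes at an adjusted p below 0.05 in blue. The intervals of Il1a, Il12a, Il1b, Il33 and Il34 lie below 0 and that of Il15 above 0, and only Il1a, Il12a and Il33 passed after adjustment over all genes.

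To compare levels between genes, CPM values (TMM-scaled) were divided by exon length in kilobases. Il33 had the highest mean level over the 12 libraries (16.6 ± 3.32 CPM per kb, SD), followed by Il6 (13.4 ± 4.11) and Il34 (4.47 ± 0.583). Lif (2.48 ± 0.196), Il1b (2.30 ± 1.02), Il18 (2.09 ± 0.268) and Il12a (1.67 ± 0.698) formed a middle range. Il15 (0.687 ± 0.141), Il1a (0.622 ± 0.272) and Il11 (0.580 ± 0.170) were lowest. Of the 9 neighboring pairs in this order, 3 held in all 12 libraries: Il6 above Il34, Il34 above Lif, and Il12a above Il15. The other neighbors overlapped in their spread.

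The order differed between treatments along the scale. Il33 was above Il6 in 6 of 6 CON libraries and in 3 of 6 PEA libraries, and Il1a was above Il15 in 6 of 6 CON and 0 of 6 PEA libraries. In the middle range, Il18 was above Il12a in 3 of 6 CON and 6 of 6 PEA libraries. By the CON means alone, Il1b (2.82 CPM per kb) stood above Lif (2.51), and Il12a (2.23) above Il18 (2.11). By the PEA means alone, Il6 (14.5 CPM per kb) stood above Il33 (14.1), Il18 (2.07) above Il1b (1.78) and Il11 (0.639) above Il1a (0.403), which was then the lowest of the 10. Il33 made up 37.1% to 43.4% of the summed level of the 10 genes in CON and 29.9% to 37.6% in PEA. The median share of Il6 was 23.9% among CON and 34.7% among PEA libraries, with overlapping ranges. These shares are descriptions, since a fall of Il33 alone raises the share of each other gene.

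**Figure D3:**
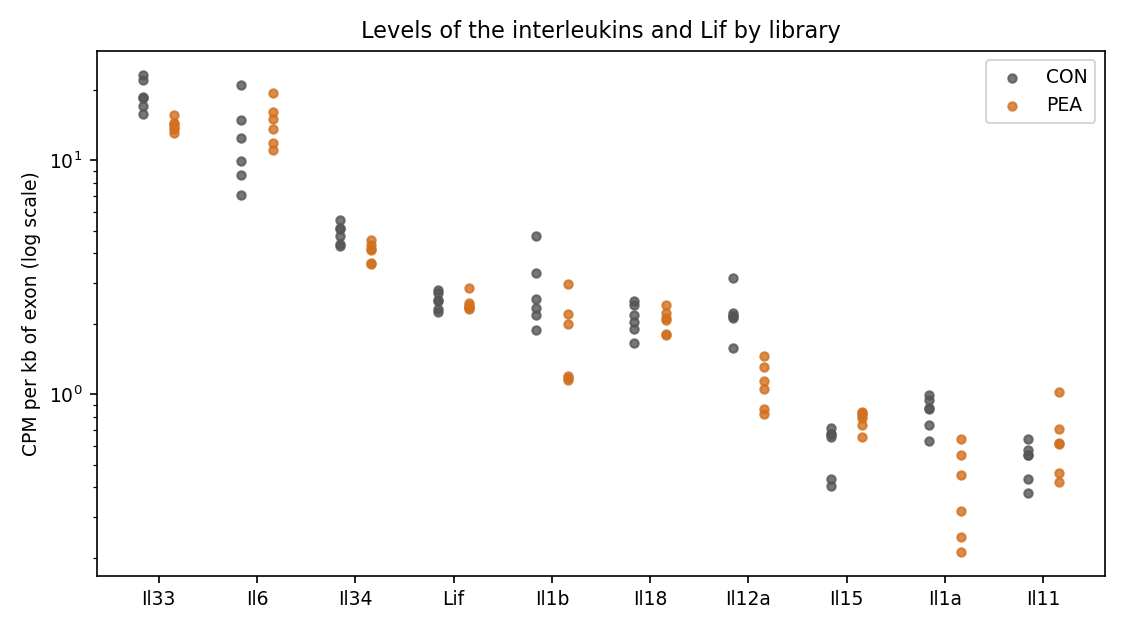
Level of each gene in CPM per kb of exon (y axis, log scale) in the 6 CON (gray) and 6 PEA (orange) libraries, with genes ordered by their mean. Il33 and Il6 lie above 7 CPM per kb in every library, while Il15, Il1a and Il11 lie near or below 1.

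After the group means were removed, the deviations of the 10 genes were compared in pairs over the 12 libraries. Of the 45 pairs, 22 had a Pearson r above 0, the median r was -0.05, and 0 passed a Benjamini-Hochberg adjustment of permutation p-values over the pairs (3 had an unadjusted p below 0.05). The lowest r was that of Il1b and Il6 (r = -0.733, permutation p = 0.00511, adjusted p = 0.230, and Spearman rho = -0.720, permutation p = 0.00852). It was -0.563 without the 2 libraries farthest from the median of Il1b. Il33 with Il18 gave r = -0.714 (permutation p = 0.0206, adjusted p = 0.464, rho = -0.727), which was -0.413 without the 2 farthest libraries, -0.860 within CON and -0.353 within PEA. Il1a with Il34 gave r = 0.612 (permutation p = 0.0384, adjusted p = 0.487, rho = 0.706), and 0.813 without the 2 farthest libraries. Wells of the same repeat share culture conditions, so the 12 libraries are not fully independent points.

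The receptors through which these cytokines act were examined as a list of 19 genes, of which 16 were analysed and 14 tested. Of these, 1 fell and 0 rose in edgeR, where 4.74% of all genes fell and 11.0% were called in either direction. At an unadjusted edgeR p below 0.05 there were 6 of the 14, against 27.4% of all genes. Of the 14, 8 were estimated higher. Lifr, the chain through which Lif reaches gp130, had normalized counts of 2150, 2380 and 2840 in CON and 1570, 1870 and 2200 in PEA, and 5 of 6 PEA libraries lay below the lowest CON library. Lifr fell by 0.39 on the log2 scale (SE 0.08, edgeR adjusted p = 0.00577), while Lif itself was not called. The median log2 fold change of the list was 0.03.

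A second list of 20 partner chains, antagonists and genes for cytokine cleavage and export had 13 tested members, of which 1 rose and 1 fell, beside 11.0% of all genes called in either direction. Casp8, a caspase of death receptor signaling that can also cleave the Il1b precursor, rose from 621 ± 48.2 to 745 ± 51.0 normalized counts (SD, n = 6), a log2 fold change of 0.27 (SE 0.06, edgeR adjusted p = 0.0149). S100a13, a calcium-binding protein that takes part in the export of Il1a, fell from 532 ± 38.7 to 425 ± 41.0 (log2 fold change -0.32, SE 0.07, edgeR adjusted p = 0.0127). Casp1, which cuts Il1b and Il18, was not called (log2 fold change 0.11, edgeR adjusted p = 0.446).

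**Figure D4:**
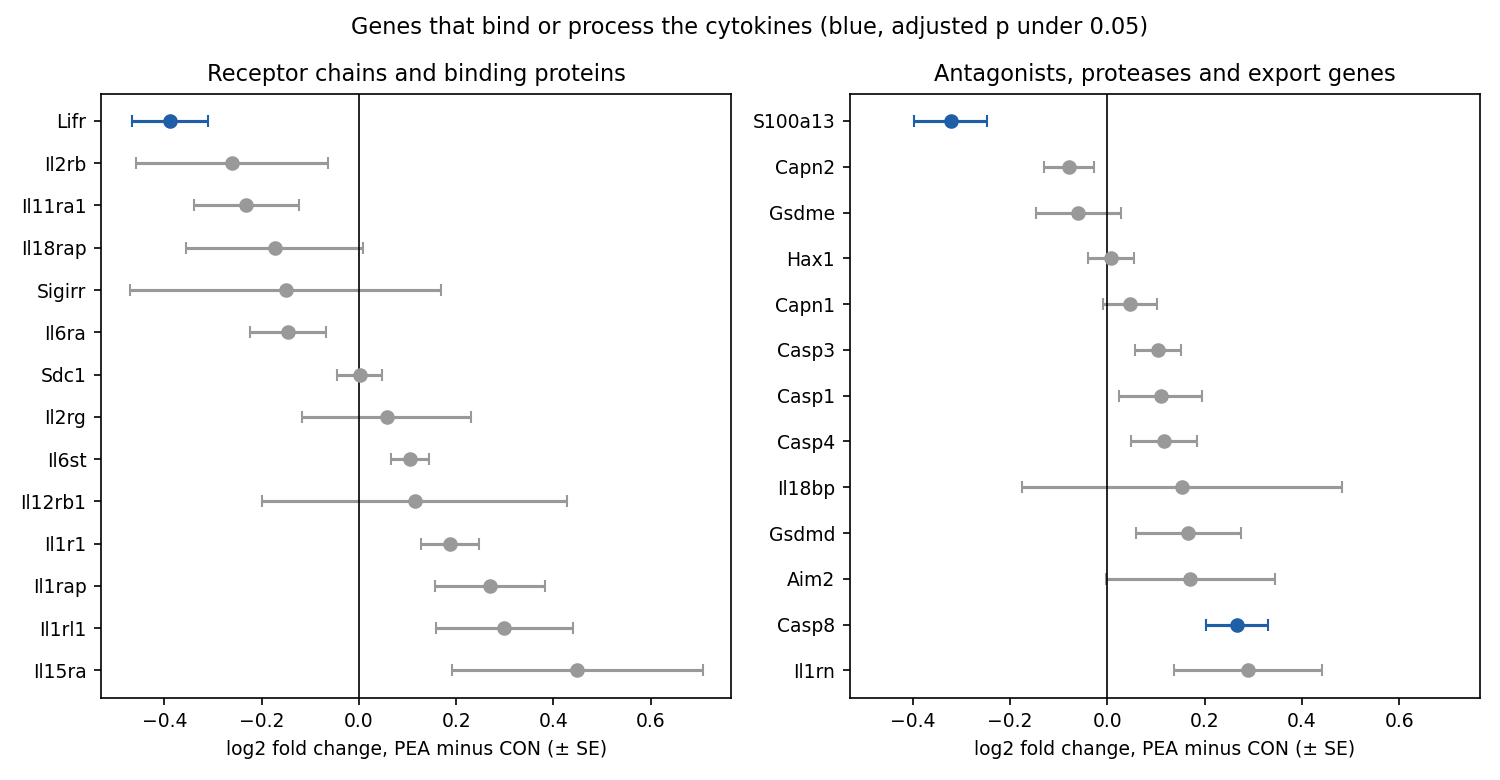
Log2 fold change (x axis, PEA minus CON) with its SE for the 14 tested receptor chains and binding proteins (left) and 13 tested antagonists, proteases and export genes (right), with genes at an edgeR adjusted p below 0.05 in blue. Lifr and S100a13 have the most negative log2 fold changes of their panels, and Casp8 is the called gene above 0.

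Of 13 genes that act in signaling from IL-1 family receptors, 1 rose and 0 fell, where 6.31% of all genes rose. Irak4, a kinase that Myd88 recruits to the activated receptor, rose by 0.44 on the log2 scale (SE 0.11, edgeR adjusted p = 0.0170), its mean normalized count being 226 ± 30.9 in CON and 305 ± 41.0 in PEA (SD). Among 33 further cytokine genes, 14 were analysed and 7 tested, with 1 called higher (6.31% of all genes) and 0 lower. It was Csf1, which shares its receptor with Il34 and rose by 0.15 on the log2 scale (SE 0.05, edgeR adjusted p = 0.0439), from 8740 ± 532 to 9710 ± 335 normalized counts. This call was kept in 2 of 12 fits that left out 1 library, those without CON replicate 3 or PEA replicate 3. The log2 fold change of Csf1 lay between 0.13 and 0.17 over the 12 fits. The shared receptor Csf1r had a median of 6.21 estimated counts and was not tested.

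The nearest protein-coding genes on either side of the cytokine genes were also examined. Of 18 neighboring protein-coding genes, 10 were tested, 2 were called higher and 1 lower, where 6.31% of all genes were called higher and 4.74% lower. Ckap2l, a spindle protein of dividing cells that ends 1069 bases from Il1a, rose by 0.91 on the log2 scale (SE 0.15, edgeR adjusted p = 0.00176), the opposite direction from Il1a. Tyms, which makes thymidylate for DNA synthesis and lies 38219 bases from Il6, rose by 0.35 (edgeR adjusted p = 0.0212), and Sdhd, a respiratory subunit gene 14009 bases from Il18, fell by 0.20 (edgeR adjusted p = 0.0266). The long noncoding genes that overlap Il1a, Il1b, Il33, Il12a, Il34, Il6 and Il15 on the opposite strand were not tested, nor were Bco2 and Tex12, which overlap Il18.

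Markers of the cells in the culture were examined beside these results. Of 6 myoblast and proliferation markers, 2 rose and 1 fell (11.0% of all genes were called): Mki67 rose by 1.03 and Top2a by 0.95 on the log2 scale (edgeR adjusted p = 0.0149 and 0.000937), and Cdh15 fell by 0.25 (edgeR adjusted p = 0.0444). The myoblast genes Pax7, Myf5 and Myod1 were not called, with log2 fold changes of -0.02, 0.09 and -0.10. Of 10 myotube markers, 2 fell (Myh8, log2 fold change -0.74, edgeR adjusted p = 0.0474, and Tnnt3, -0.33, edgeR adjusted p = 0.0184), with 4.74% of all genes called lower. All 10 were estimated lower (median log2 fold change -0.16, against 0.01 for all genes tested). An unadjusted edgeR p below 0.05 was found for 5 of the 10, against 27.4% of all genes. The summed level of the 10 was 5980 to 9160 CPM in CON and 6370 to 7210 CPM in PEA. The part of these marker changes in the results for the cytokine genes was not tested. Of 11 macrophage markers, 7 were analysed and 3 tested, with 0 called, and their summed level was 30.9 to 42.4 CPM in CON and 36.0 to 45.8 CPM in PEA.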

How the data were processed

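The labels list 13 sample entries for 12 libraries, since the run and the top-up run of PEA replicate 2 share 1 set of values, counted as 1 library. Per the labels and methods, poly-A libraries were aligned with STAR 4.4.1d to mm39 and quantified to Ensembl genes in Partek Flow. The authors deposited estimated counts per gene, without normalization, and a second table (a signal, the same counts divided by 1 DESeq2 factor per library). Of 16382 genes, 16343 matched GENCODE for GRCm39, and 2240 protein-coding genes with identifiers above the last in the tables were not used here.

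Estimated counts were rounded and tested over all genes with edgeR 4.0.16 (quasi-likelihood, TMM, default filter on low counts, Benjamini-Hochberg, threshold 0.05) in R 4.3.3. Alternatives used DESeq2 1.42.0 and limma 3.58.1 (pseudocount 1 on normalized counts). Ratios used estimated counts with a pseudocount of 0.5 and all 924 assignments of libraries (smallest possible exact permutation p 0.00216), and covariation used 100000 permutations within groups. Named genes are the 10 cytokines, the called genes of the receptor, processing, signaling and further cytokine lists, called neighbors, and Il18bp and Il15ra for their ratios. A further gene was left out of the processing list and its counts and is not reported here. Genes named outside this rule (Casp1, Il23a, Csf1r, Ptprc, Acta1, Myog and the other markers) were chosen after their values were seen, and untested or overlapping genes (Il12b, Ebi3, Vac14, Mtss2, Bco2 and Tex12) are named without values. The cytokines and lists were chosen with earlier results of these data known. Intervals hold no error beyond counting and the spread among these libraries.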

Additional observations from a re-analysis of the deposited data

Results flagged for a closer look

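Among 26 sets of 6 values (10 genes and 3 ratios in each treatment), 1 held a library far from the others, where chance gives about 1 in 20. In Lif, PEA replicate 5 had 250 normalized counts and the next highest PEA library 216. That library was not unusual by this measure in the other 9 genes.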

How the results depend on the processing

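Il1a, Il33 and Il12a passed the threshold in all 10 alternatives with all libraries and in all 12 fits that left out 1 library, with the highest edgeR adjusted p at 0.0471 for Il1a, without PEA replicate 6. The number of the 10 genes called lay between 3 and 4 in each of these fits. Il34 passed in DESeq2, without CON replicate 2 and in 1 of 2 random thinnings to the smallest library (adjusted p = 0.0358, a second draw added after the data had been seen), and Il1b only without PEA replicate 3. For Il18 the log2 fold change lay between -0.10 and 0.0125 over the fits without 1 library, and was 0.0123 in that draw. The log2 ratio of Il1a to Il1b differed by -0.61 to -0.29 in those fits, passing 0.05 in 1 of 12 (without PEA replicate 2), that of Il18 to Il18bp by -0.19 to 0.0906, and that of Il15 to Il15ra by -0.23 to 0.0737. Csf1 lost its call in both thinnings (log2 fold change 0.140 and 0.150, edgeR adjusted p = 0.0673 and 0.0520), against a log2 fold change of 0.154 in the main fit. The cause of these changes was not tested. The replicate numbers did not pair the libraries (correlations of same-numbered deviations from -0.08 to 0.06, with 0 libraries closest to their own number). The block moved the calls over all genes from 1452 to 1570, left 3 of the 10 cytokine genes called, and gave log2 ratio differences of -0.46 (Il1a to Il1b), -0.07 (Il18 to Il18bp) and -0.04 (Il15 to Il15ra). In the fits without 1 library the log2 fold change ran from 0.13 to 0.46 for Il6, from 0.11 to 0.39 for Il11 and from -0.09 to -0.01 for Lif, none of them called. Il11 had the fewest counts, with a median of 19.5.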
